A study of Mus musculus with 12 samples.

Results

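The 60 genes described here encode the machinery that carries a cell from G2 through mitosis, and were measured by RNA-seq in female C57BL/6NJ mice, in the macrophages that reside in the alveoli. The genes were taken by symbol from a list ordered by mitotic step, and all 60 are among the 55291 genes of the deposited table. Ozone mice inhaled 0.8 ppm of the gas on 4 days in a row, 4 h each day, and control mice were given filtered air. They were 8 to 11 weeks old, and alveolar macrophages were flow-sorted from their lungs 3 days after the last day. Each group held 6 mice, and each of the 2 flow-sort batches held 3 mice of either group. The title of the series places the comparison in the study of tolerance to ozone. No allele or transgene is named for either group, so the groups differ, per the labels, in exposure only.

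Mitotic entry is driven by cyclin B bound to Cdk1, which is opened by Cdc25 phosphatases and fed forward by Polo-like and Aurora kinases. Kinetochores then tie chromosomes to the spindle, a checkpoint holds the anaphase-promoting complex until all are attached, and the central spindle places the furrow of cytokinesis. Most of these genes are transcribed in late S phase, G2 and mitosis and repressed in resting cells, through promoter elements bound by the DREAM and MuvB complexes and by FoxM1, so their RNA is widely used as a marker of dividing cells. Alveolar macrophages are long-lived and are known to renew themselves in the lung by division.

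Values are on a log2 scale after a variance-stabilizing transformation, which compresses differences of genes with few reads, and the mean of the filtered-air mice is 0 in every gene. A value of 0.48 therefore means 0.48 above the filtered-air mean on that scale. It is not a fold change of reads, and levels of different genes cannot be compared. The total number of reads is unknown. RNA integrity numbers lay between 8.9 and 9.7, with filtered-air mouse 4 the lowest. All 18 markers listed for alveolar macrophages were taken to have reads in all 12 mice, as mice of a batch never shared a lowest value. Their median difference was -0.01. In limma 4 of the 18 were called, where 4.25% of all genes tested were. Car4 (0.32) and Chil3 (0.25) rose, and Krt79 (-0.35) and Ear1 (-0.28) fell. Marco had the largest difference, 0.58, but an SD of 0.528 in filtered air, and was not called (limma's adjusted p = 0.108). At an unadjusted p under 0.05 there were 8 of the 18, and 3283 of all 19633 genes.

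After ozone, genes of every step from entry to cytokinesis rose. By the same rule all 60 had reads in all 12 mice, and all were tested. All 60 had a mean above that of filtered air, as had 48% of all genes tested. In limma, 48 of the 60 rose with an adjusted p under 0.05, and 0 fell. Over the 19633 genes tested the same call was made for 2.41% as higher and 1.84% as lower. The 60 genes were chosen with earlier results of these data known. The median difference of the 60 was 0.42, beside -0.00326 over all genes tested. Called differences ran from 0.27 to 0.68, with adjusted p from 0.00173 to 0.0417. The 12 that were not called were Cdc25b, Cdc25c, Aurka, Espl1, Pttg1, Cenpf, Spc25, Kif23, Anln, Ect2, Smc2 and Lmnb1. At an unadjusted p under 0.05, 56 of the 60 were higher, against 8.43% of all genes. More dividing cells and more of this RNA per cell cannot be told apart in these bulk samples.

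**Figure D1:**
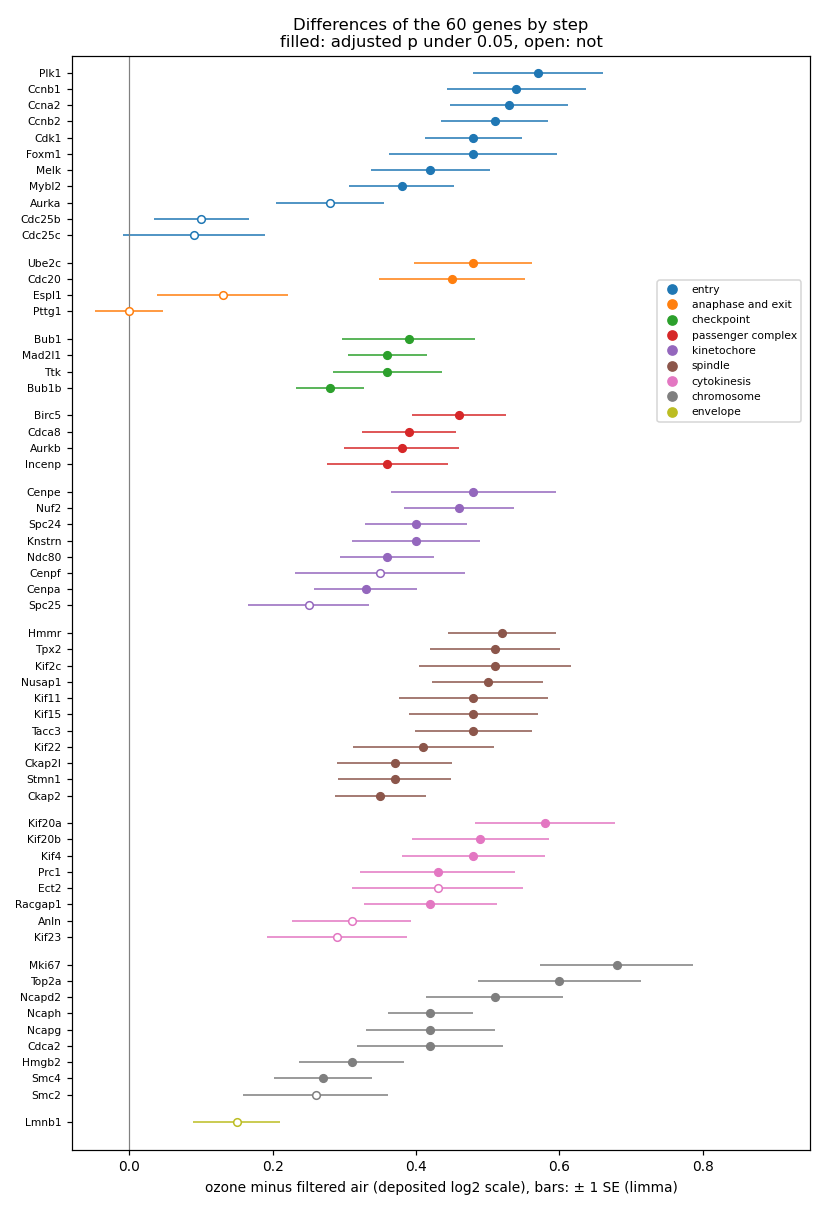
Difference between the ozone and filtered-air means for each of the 60 genes, on the deposited log2 scale, grouped by mitotic step. Bars are 1 SE from limma, and filled points have an adjusted p under 0.05. Most genes lie between 0.25 and 0.6, Mki67 is highest at 0.68, and Pttg1 lies at 0.

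The calls depended on the scaling, the variance model, the filter and the number of mice. After quantile normalization of the 12 columns 12 of the 60 were called, all higher, against 0.54% of all genes. These were Ccna2, Ccnb2, Cdk1, Plk1, Bub1b, Mad2l1, Birc5, Cdca8, Ndc80, Hmmr, Nusap1 and Ncaph. All 60 means stayed higher under that scaling, with a median difference of 0.34. The columns held deviations from the filtered-air mean. That scaling thus gave the mice the same distribution of deviations, and did not equalize expression levels. With a prior variance that followed the mean 41 were called, all higher, against 1.99% of all genes. Foxm1, Cenpe, Kif22, Prc1, Mki67, Smc4 and Cdca2 were lost. Values are centred on filtered air, so that mean follows the ozone difference and not the level of a gene. That fit therefore cannot show whether the calls depend on abundance. Without the filter 43 were called (1.83% of all genes higher), and with a robust prior variance 45 (2.33%). A stricter filter, with no mouse at a shared minimum, gave 50 (2.91%). Without the batch covariate the number was 51 (3.28%). With 3 mice against 3, batch 1 alone gave 15 called members (0.362% of all genes were called higher) and batch 2 alone gave 0 (0% of all genes), where 51 members and 1800 of the 19633 genes had an unadjusted p under 0.05.

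Promoters of these genes are shown because the genes moved together and because their known control runs through short elements near the start of transcription. RefSeq windows from 250 bases before to 50 after the start (GRCm38.p6, the assembly of the mm10 build) were found for 48 of the 60. Aurkb, Ccna2, Cdc25c, Cdca2, Foxm1, Incenp, Kif20a, Lmnb1, Smc4, Spc24, Stmn1 and Tpx2 had no entry. Searches on both strands covered the cell cycle genes homology region, or CHR, spelled TTTGAA or TTCGAA, and the CCAAT box, spelled CCAAT. The CHR spelling TTCGAA reads the same on either strand, and overlapping matches were counted. The stretches below lie before the RefSeq start, run 5′ to 3′ on the strand of the gene, and have matches in capitals. A position is counted back from the start, with -1 the base before it, and names the first base of a match.
Ccnb2: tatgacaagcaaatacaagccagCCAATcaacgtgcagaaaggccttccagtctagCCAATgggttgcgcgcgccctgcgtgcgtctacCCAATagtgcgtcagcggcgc
Cdk1: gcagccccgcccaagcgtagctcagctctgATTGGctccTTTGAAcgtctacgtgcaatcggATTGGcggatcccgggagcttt
Top2a: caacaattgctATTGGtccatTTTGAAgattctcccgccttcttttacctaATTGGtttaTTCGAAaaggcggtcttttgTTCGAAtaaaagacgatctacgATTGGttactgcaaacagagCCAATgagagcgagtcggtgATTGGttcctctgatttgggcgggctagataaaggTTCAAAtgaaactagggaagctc
Mki67: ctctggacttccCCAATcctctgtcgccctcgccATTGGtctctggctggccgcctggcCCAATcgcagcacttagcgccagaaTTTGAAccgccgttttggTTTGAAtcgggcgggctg
Kif11: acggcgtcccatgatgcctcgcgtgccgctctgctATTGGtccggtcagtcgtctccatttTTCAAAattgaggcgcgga
Cdc20: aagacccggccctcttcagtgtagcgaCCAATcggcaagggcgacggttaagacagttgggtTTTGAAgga
Hmmr: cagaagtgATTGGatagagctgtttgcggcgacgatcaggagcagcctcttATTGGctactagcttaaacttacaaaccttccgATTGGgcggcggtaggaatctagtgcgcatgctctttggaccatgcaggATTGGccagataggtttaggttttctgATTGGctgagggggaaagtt
Aurka: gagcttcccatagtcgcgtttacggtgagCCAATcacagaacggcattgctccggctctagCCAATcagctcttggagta
Ncaph: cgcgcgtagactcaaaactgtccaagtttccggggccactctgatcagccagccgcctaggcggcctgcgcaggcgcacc

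Ccnb2 (chr9:70421555-70421664, minus strand) is shown for its row of CCAAT boxes at -87, -54 and -21. Cdk1 (chr10:69352939-69353022, minus strand) has CCAAT boxes at -80 and -48 on either side of a CHR at -71. Top2a (chr11:99024190-99024389, minus strand) has the most matches of the set printed, with a CHR at -179, -140, -120 and -23 and CCAAT boxes at -189, -149, -98, -78 and -58. Mki67 (chr7:135716460-135716579, minus strand) has CHR matches at -116 and -98 behind CCAAT boxes at -188, -166 and -141. Kif11 (chr19:37376302-37376381, plus strand) and Cdc20 (chr4:118437353-118437423, minus strand) show, in the stretches printed, a CCAAT box at -45 and -53 and a CHR at -19 and -18. Hmmr (chr11:40733438-40733617, minus strand) has CCAAT boxes at -172, -129, -96, -47 and -20. Aurka (chr2:172370571-172370650, minus strand) was not called and has CCAAT boxes at -51 and -19. A CHR also lies outside the printed stretch in Cdk1, at -15, in Ccnb2, at -167 and +5, in Hmmr, at +9, and in Aurka, at +33. A further CCAAT box lies outside it in Cdk1 (-208), Top2a (-227) and Cdc20 (-8). Ncaph (chr2:127133955-127134034, minus strand) rose and holds neither spelling in its whole window.

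Of the 48 members with a window, 36 (75%) held a CHR, against 21.7% of the 27025 genes with a window. A CCAAT box was found in 33 (68.8%) against 41.1%, and both in 1 window in 31 (64.6%) against 8.61%. A CHR lay between -40 and +50 in 32 members (66.7%) against 5.48% of all genes, a span chosen after the positions were seen. Neither spelling occurred in the windows of Pttg1, Mybl2, Melk, Mad2l1, Birc5, Nuf2, Knstrn, Nusap1, Tacc3 and Ncaph. Apart from Pttg1, these rose. Of the other members not called, Espl1, Cdc25b, Aurka, Cenpf, Spc25, Kif23, Ect2 and Smc2 held both a CHR and a CCAAT box, and Anln held a CHR. A match describes letters only and is not a bound site.

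**Figure D2:**
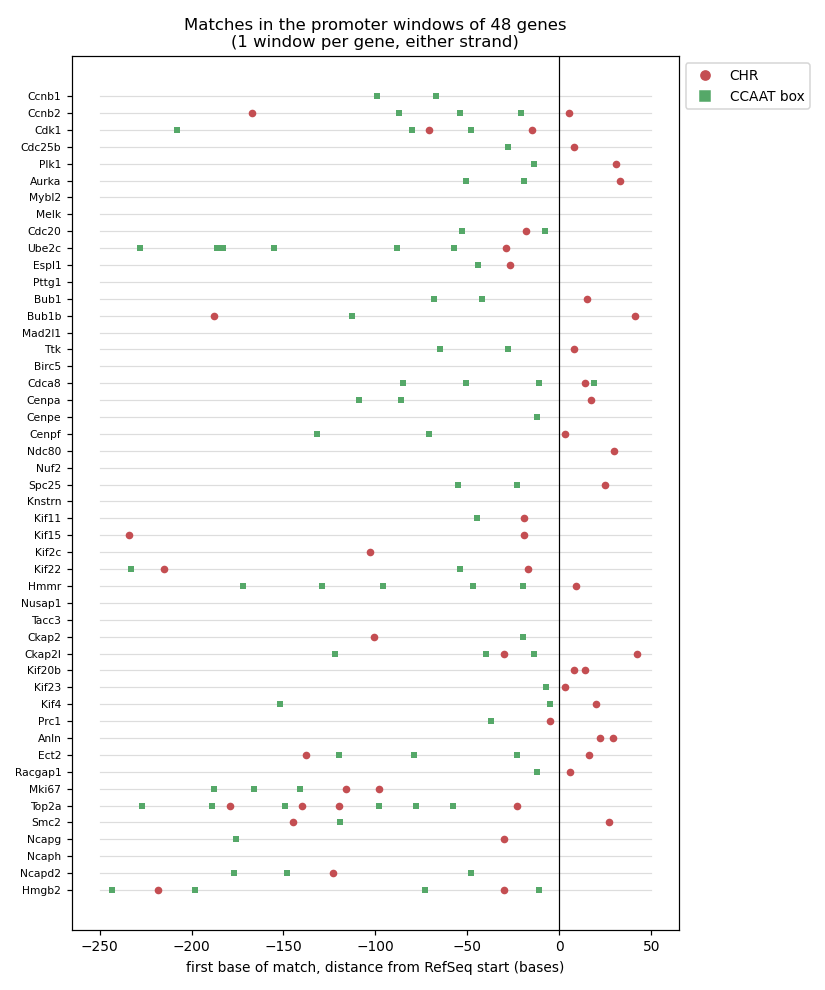
First base of each CHR match (circles) and CCAAT match (squares) on either strand in 1 RefSeq promoter window for each of 48 genes, by distance in bases from the RefSeq start. CHR matches gather near the start, with 32 of the 48 genes holding one between -40 and +50.

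Among the 11 genes of mitotic entry 8 rose, with a median difference of 0.48 over the step. Cdk1, the mitotic kinase, had the smallest p of the step. It lay between -0.2 and 0.21 in filtered air (median -0.02) and between 0.27 and 0.63 after ozone (median 0.5). The groups did not overlap, as for 20 of the 60 members and 1.96% of all genes in that direction. Cdk1 rose to 0.48 ± 0.122 (SD, n = 6) against 0 ± 0.133, with an SE of 0.0679 and limma's adjusted p = 0.00173. Ccnb1, the cyclin B that partners Cdk1, lay between -0.37 and 0.3 in filtered air (median 0) and between 0.35 and 0.65 after ozone (median 0.56). It rose by 0.54 (SE 0.097, limma's adjusted p = 0.00643), again without overlap. Ccnb2 (0.51) and Ccna2 (0.53), the other cyclins of G2, also rose with separate groups. A row for a related pseudogene, Ccnb1-ps, differed by 0.01 (SE 0.0422) and Ccnb2-ps by -0.06 (SE 0.0432), and neither was called. How reads shared with such copies were assigned is not given in the sources used here.

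Plk1, the Polo-like kinase that activates Cdc25 and builds the spindle poles, had the largest difference of the entry genes. It lay between -0.26 and 0.34 in filtered air (median -0.01) and between 0.34 and 0.79 after ozone (median 0.57). Filtered-air mouse 6 and ozone mouse 4 met at 0.34, and 5 of 6 ozone mice were above every filtered-air mouse. Plk1 rose by 0.57 (SE 0.0904, limma's adjusted p = 0.00317). Foxm1 encodes the transcription factor that switches on many of these genes. It ranged widely in filtered air, from -0.47 to 0.44 (median -0.03), and from 0.25 to 0.6 after ozone (median 0.54). Foxm1 rose by 0.48 (SE 0.117, limma's adjusted p = 0.0306), and 4 of 6 ozone mice were above all filtered-air mice. Mybl2, the Myb protein that joins MuvB, rose by 0.38 and Melk, a kinase of dividing cells, by 0.42.

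The other 3 entry genes were not called. Cdc25b and Cdc25c, the phosphatases that remove the inhibitory phosphates from Cdk1, differed by 0.1 (SE 0.0663, limma's adjusted p = 0.523) and 0.09 (SE 0.0991, adjusted p = 0.714). The groups overlapped in both, Cdc25c from -0.4 to 0.28 in filtered air and from -0.03 to 0.33 after ozone. Aurka, the centrosomal Aurora kinase, differed by 0.28 (SE 0.0749) and missed the threshold at an adjusted p of 0.0505, the value also of Anln. Of 23 alternative settings, Aurka was called in 6, Anln in 7 and Ect2 in 5. Cenpf, Kif23 and Smc2 were called in 1 each. Just inside the threshold lay Smc4, at 0.0417.

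Of the 4 genes of anaphase and mitotic exit, 2 rose and 2 did not pass. Ube2c, the ubiquitin-conjugating enzyme of the anaphase-promoting complex, lay between -0.27 and 0.24 in filtered air (median 0) and between 0.22 and 0.7 after ozone (median 0.49). It rose by 0.48 (SE 0.0824, limma's adjusted p = 0.00516). Only ozone mouse 4, at 0.22, fell inside the filtered-air range. Cdc20, the activator of that complex in mitosis, lay between -0.38 and 0.34 in filtered air (median 0.02) and between 0.17 and 0.66 after ozone (median 0.44). It rose by 0.45 (SE 0.102, limma's adjusted p = 0.021), with 5 of 6 ozone mice above all filtered-air mice. The pair that governs the parting of sister chromatids was not called. Pttg1, or securin, differed by 0.00285 (SE 0.0475, limma's adjusted p = 0.987), from -0.1 to 0.07 in filtered air and from -0.09 to 0.14 after ozone. Espl1, the protease separase that securin inhibits, differed by 0.13 (SE 0.0914, adjusted p = 0.557), with 0 ozone mice above the highest filtered-air mouse, which was mouse 1 at 0.38.

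All 4 spindle checkpoint genes rose, by 0.28 to 0.39. Mad2l1, the Mad2 protein that inhibits Cdc20, lay between -0.16 and 0.13 in filtered air (median 0.01) and between 0.22 and 0.47 after ozone (median 0.38), with no overlap. It rose to 0.36 ± 0.0994 (SD, n = 6) against 0 ± 0.0951, with an SE of 0.055 and limma's adjusted p = 0.00267. The kinase Ttk (0.36) and the BubR1 gene Bub1b (0.28) were separate between the groups as well. Bub1, the kinase that docks the checkpoint at kinetochores, rose by 0.39 with 4 of 6 ozone mice above all filtered-air mice.

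The 4 genes of the chromosomal passenger complex, which corrects faulty attachments and later steers cytokinesis, rose by 0.36 to 0.46. Birc5, or survivin, lay between -0.2 and 0.2 in filtered air (median 0.01) and between 0.32 and 0.64 after ozone (median 0.43), and the groups were separate. It rose by 0.46 (SE 0.0661, limma's adjusted p = 0.00181). Aurkb, the kinase of the complex, lay between -0.31 and 0.27 in filtered air (median -0.01) and between 0.24 and 0.49 after ozone (median 0.42), and rose by 0.38 (SE 0.0806, adjusted p = 0.0152). In Aurkb 4 of 6 ozone mice were above all filtered-air mice. The scaffold Incenp rose by 0.36 and borealin, encoded by Cdca8, by 0.39.

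Of the 8 centromere and kinetochore genes 6 rose. The Ndc80 complex, which grips microtubule ends, has its genes Ndc80, Nuf2, Spc24 and Spc25 on the list. Nuf2 had the smallest p of the step, from -0.28 to 0.23 in filtered air (median 0.01) and from 0.28 to 0.62 after ozone (median 0.47), and rose by 0.46 (SE 0.0771, limma's adjusted p = 0.00438). Nuf2 and Ndc80 (0.36) were separate between the groups, and Spc24 rose by 0.4 with 5 of 6 ozone mice above all filtered-air mice. Spc25 differed by 0.25 and was not called (SE 0.0838, adjusted p = 0.128). Cenpe, the kinetochore motor, rose by 0.48, Knstrn, a kinetochore protein also called kinastrin, by 0.4 and Cenpa, the centromeric histone, by 0.33. Cenpf, a large outer kinetochore protein, differed by 0.35 but varied among filtered-air mice with an SD of 0.298 (adjusted p = 0.133).

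All 11 spindle genes rose, by 0.35 to 0.52. Hmmr, a spindle-pole microtubule protein, lay between -0.25 and 0.18 in filtered air (median 0) and between 0.3 and 0.67 after ozone (median 0.51), without overlap. It rose by 0.52 (SE 0.0751, limma's adjusted p = 0.00192). Tpx2, which activates Aurora A on the spindle, rose by 0.51, and Tacc3, which bridges spindle fibres, by 0.48. The motor genes of the step were Kif2c (0.51), Kif11 (0.48), Kif15 (0.48) and Kif22 (0.41), and each overlapped between the groups. The microtubule proteins Nusap1 (0.5), Ckap2 (0.35) and Stmn1 (0.37) were separate, while Ckap2l (0.37) overlapped.

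Of the 8 genes of the central spindle and cytokinesis 5 rose. Kif20a, a kinesin of the central spindle, lay between -0.33 and 0.38 in filtered air (median -0.02) and between 0.39 and 0.78 after ozone (median 0.6), so the groups only just separated. It rose by 0.58 (SE 0.098, limma's adjusted p = 0.00467). Kif20b (0.49) was separate too. Kif4 (0.48), the microtubule bundler Prc1 (0.43) and Racgap1 (0.42), a subunit of centralspindlin, rose with overlap. The 3 not called were Ect2, an exchange factor that acts at the furrow (0.43, adjusted p = 0.058), the furrow scaffold Anln (0.31, adjusted p = 0.0505) and Kif23, the kinesin partner of Racgap1 (0.29, adjusted p = 0.122). Ect2 matched the called members in size, but its SD in filtered air was 0.306.

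Of the 9 genes of mitotic chromosome structure 8 rose. Mki67, the Ki-67 protein that coats mitotic chromosomes and the usual marker of cycling cells, had the largest difference of the 60, and the 6th largest rise of all genes tested. It lay between -0.4 and 0.42 in filtered air (median -0.02) and between 0.54 and 0.81 after ozone (median 0.68), with no overlap. Mki67 rose to 0.68 ± 0.1 (SD, n = 6) against 0 ± 0.285, with an SE of 0.107 and limma's adjusted p = 0.00297. With a prior variance that followed the mean, the difference of Mki67 did not pass (limma's adjusted p = 0.0689). Top2a, the topoisomerase that untangles sister chromatids, lay between -0.48 and 0.4 in filtered air (median 0.05) and between 0.39 and 0.75 after ozone (median 0.62). It rose by 0.6 (SE 0.114, limma's adjusted p = 0.00884), and ozone mouse 4 alone, at 0.39, was inside the filtered-air range. Among all genes tested, 21 of the 60 were in the 50 largest rises on this scale.

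Condensin, the ring complex that compacts chromosomes, was uneven. Ncaph, its kleisin subunit, lay between -0.16 and 0.24 in filtered air (median -0.01) and between 0.32 and 0.5 after ozone (median 0.42) and was separate. It rose by 0.42 (SE 0.0596, limma's adjusted p = 0.00178). The regulatory subunits Ncapd2 (0.51) and Ncapg (0.42) rose as well. The ATPase subunits shared with condensin II were lower on the list, Smc4 at 0.27 (adjusted p = 0.0417) and Smc2 at 0.26 (adjusted p = 0.191, not called). The difference between subunits was not tested. Hmgb2, a chromatin protein, rose by 0.31 and Cdca2, a phosphatase-targeting subunit on anaphase chromosomes, by 0.42. Lmnb1, the B-type lamin of the nuclear envelope, lay between -0.13 and 0.12 in filtered air (median 0) and between -0.06 and 0.33 after ozone (median 0.16). It differed by 0.15 and was not called (SE 0.0608, limma's adjusted p = 0.221).

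**Figure D3:**
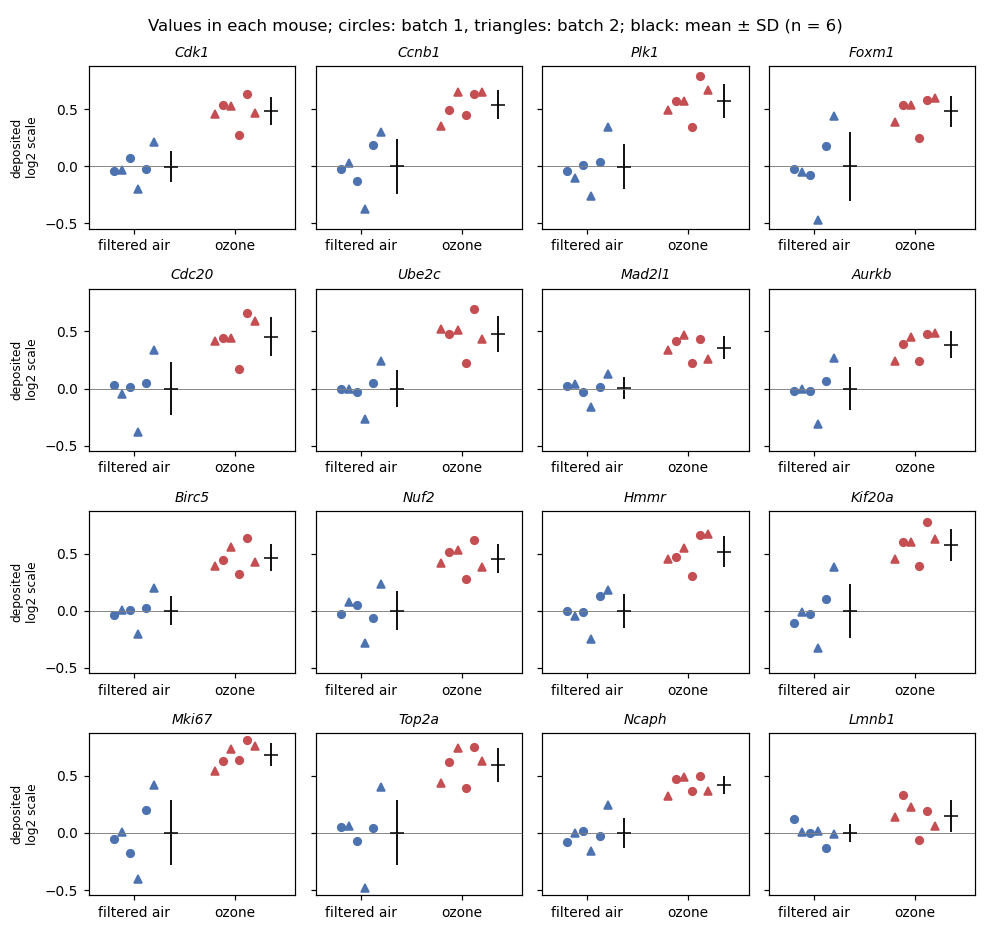
Values of 16 genes in each mouse on the deposited log2 scale, filtered air in blue and ozone in red, circles for flow-sort batch 1 and triangles for batch 2, with mean and SD (n = 6) in black. Ozone mice lie above most filtered-air mice in every panel but Lmnb1, and the highest and lowest filtered-air mice are usually triangles of batch 2.

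The mice differed among themselves along most of the gene set. The median of the 60 genes was 0.02, 0, -0.03, -0.27, 0.03 and 0.27 in filtered-air mice 1 to 6, and 0.34, 0.41, 0.49, 0.26, 0.55 and 0.43 in ozone mice 1 to 6. Filtered-air mouse 6 thus reached the level of ozone mouse 4, and filtered-air mouse 4 lay far below its group. Both were sorted in batch 2. Filtered-air mouse 6 was the highest of its group in 55 of the 60 genes and mouse 4 the lowest in 52. Ozone mouse 4 was the lowest of its group in 41 genes and ozone mouse 5 the highest in 36. Of the 40 members whose groups overlapped, filtered-air mouse 6 was the highest in 35. Without it 47 of the 60 were separate, where 2.68% of all genes were. That mouse was picked after its values in these genes were seen, not its values in other genes. Its removal could only raise the count, so no conclusion is drawn from it.

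**Figure D4:**
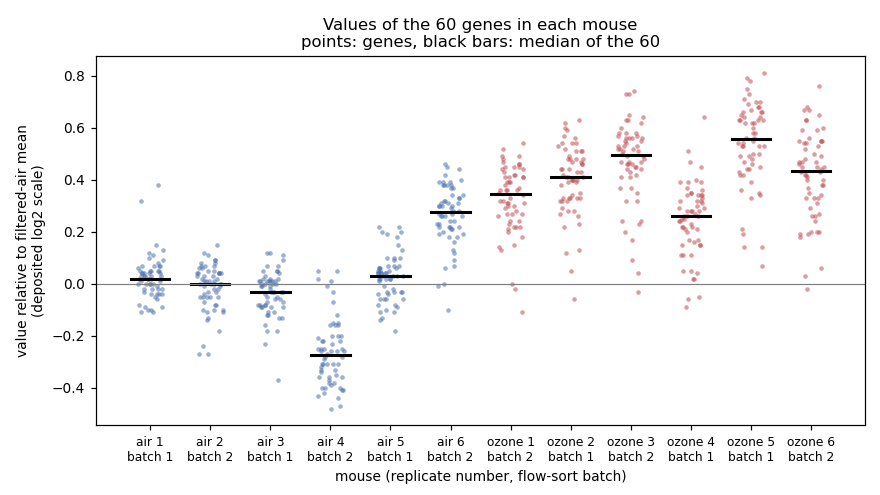
Values of the 60 genes (points) in each of the 12 mice, on the deposited log2 scale relative to the filtered-air mean, with the median of the 60 as a black bar. Filtered-air mouse 4 is low at a median of -0.27, and filtered-air mouse 6 at 0.27 stands beside ozone mouse 4 at 0.26.

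Spread was larger in filtered air than after ozone in 53 of the 60 members, with a median SD of 0.193 against 0.132. Over all genes this held for 48.6%, with medians of 0.0745 and 0.0759. With filtered-air mice 4 and 6 both left out, an alternative chosen after their values were seen, 47 members were called, against 1.64% of all genes as higher, and the median difference was 0.42. Deviations from the group means ran in parallel across the 12 mice. Over the 1770 pairs of members the median Pearson r was 0.76, beside 0 over all pairs of genes tested, and 43 members correlated above 0.8 with the median of the others. These are descriptions over 12 mice that share library and depth between genes, and filtered-air mice 4 and 6 weigh heavily in them. The genes that followed the others least were Pttg1 (r = -0.07), Espl1 (-0.03), Lmnb1 (0.21) and Bub1b (0.27). Bub1b rose between the groups and yet did not track the spread between mice.

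In each batch alone the difference was of like size, with a median of 0.4 over the 60 genes in batch 1 and 0.41 in batch 2. Members were higher after ozone in 58 of 60 cases in batch 1, where Espl1 (-0.02) and Pttg1 (-0.01) were lower, and in all 60 in batch 2. In limma's test of the interaction between exposure and batch 0 members had an adjusted p under 0.05, as had 0% of all genes. Bub1b alone had an unadjusted p under 0.05, at 0.033, with a rise of 0.38 in batch 1 and 0.19 in batch 2. Over all genes that unadjusted p was reached by 2.6%.

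**Figure D5:**
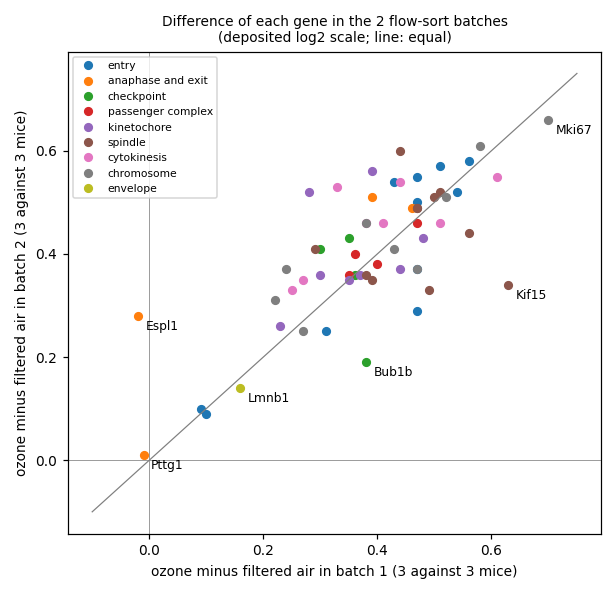
Difference between ozone and filtered air for each of the 60 genes in flow-sort batch 1 (horizontal) and batch 2 (vertical), 3 against 3 mice each, on the deposited log2 scale. Most points lie near the line of equal differences, Espl1 (-0.02 and 0.28) and Kif15 (0.63 and 0.34) lie farthest from it, and Pttg1 lies near 0 in both.

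Leaving out 1 mouse at a time left 37 of the 48 calls in place in all 12 fits, and 11 called members fell short in at least 1. Without ozone mouse 5 all of these 11 fell short, namely Foxm1, Cdc20, Bub1, Incenp, Cenpe, Knstrn, Kif22, Prc1, Smc4, Hmgb2 and Cdca2. Without ozone mouse 3 the same genes apart from Cdc20 did. Without filtered-air mouse 1 the number was 8, without mouse 3 of that group 7, without mouse 2 it was 6, without mouse 5 it was 5, without mouse 4 it was 2 and without mouse 6 it was 1. Without ozone mouse 2 or 6 it was 6, without ozone mouse 1 it was 5 and without ozone mouse 4 it was 0. In these fits the differences stayed between 0.233 and 0.479 and limma's adjusted p between 0.0502 and 0.103.

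Further mitotic genes came from a second list of 73 with no member among the 60. That list too was chosen with earlier results of these data known. Of these, 35 rose in limma (2.41% of all genes did), 0 fell, and the median difference was 0.23. The count was 23 without ozone mouse 2, 3 or 5. The largest rise was that of Cit, the citron kinase of the midbody, by 0.58 (SE 0.109, limma's adjusted p = 0.00849). Aspm, a spindle-pole protein, rose by 0.51 and Iqgap3, a scaffold protein of the IQGAP family, by 0.49. Gtse1, a microtubule-bound regulator of G2, had the smallest p and rose by 0.47 (SE 0.0673, adjusted p = 0.00182). Of the 38 not called, 3 near 0 were picked after their values were seen: Hjurp, the chaperone of Cenpa, at -0.01 (SE 0.108), and the kinetochore genes Mis12 at 0.02 (SE 0.0547) and Zwint at 0.01 (SE 0.0429).

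The core of the anaphase-promoting complex does not cycle at the RNA level in most cells. With the co-activator Fzr1 it made up a list of 15 genes, of which 0 were called in limma. Of all genes 4.25% were called in either direction, so the count does not set the list apart from them. At an unadjusted p under 0.05 there were 2 of the 15, and 3283 of all 19633 genes. Its median difference was 0.04 and its smallest adjusted p was 0.0927, for Anapc15 (0.15). Of 11 genes that restrain Cdk1 or mitotic entry, 2 rose and 0 fell, against 2.41% and 1.84% of all genes. They were Wee1, the kinase that places the inhibitory phosphate, by 0.3 (SE 0.0661, adjusted p = 0.0184), and the checkpoint kinase Chek2, by 0.25 (SE 0.057, adjusted p = 0.0243). Cdkn1a, the p21 inhibitor, differed by -0.22 (SE 0.0807, adjusted p = 0.173) and was not called, and is named after its value was seen. Of 11 subunits of DREAM and MuvB, which hold these promoters silent in resting cells, only Tfdp1 passed (4.25% of all genes did), with a rise of 0.18 (SE 0.0475, adjusted p = 0.0415). The median of that list was 0.01. For comparison, 25 of 30 genes of DNA replication and the G1/S transition rose, against 2.41% of all genes, with a median difference of 0.34. Over the 12 mice the deviations of that list's median from the group means had a Pearson r of 0.74 with those of the 60 members' median.

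Markers of other cells were read in the sorted samples. Of 72 genes in 14 lists, 60 were taken to have reads in all 12 mice and 62 were tested. Among the 10 not tested were Ly6g, Mpo, Elane and Camp of neutrophils, Cpa3 and Mcpt8 of mast cells and basophils, and Prg2, Epx and Ccr3 of eosinophils. In limma 0 of the 62 were called, where 4.25% of all genes were, with a smallest adjusted p of 0.0719. At an unadjusted p under 0.05 there were 10 of the 62, and 3283 of all 19633 genes. The median difference of a list ran from -0.23 for B cells to 0.22 for interstitial macrophages. By mouse, the median of a list ran from -0.33 to 0.26 in filtered air and from 0 to 0.38 after ozone for interstitial macrophages, and from -0.25 to 0.4 and from -0.35 to -0.09 for B cells. Filtered-air mouse 4, the lowest in the mitotic genes, was the highest of its group in 7 of the 13 lists with a tested gene, and filtered-air mouse 6 in 0. The median over all 62 genes was 0.23 in filtered-air mouse 4 and -0.04 in filtered-air mouse 6. It was lowest in filtered-air mice 1 (-0.15) and 2 (-0.16), whose mitotic medians were 0.02 and 0. The ozone group did not show the same order. Ozone mouse 6 was the highest of its group in 7 lists, with a mitotic median of 0.43. Ozone mouse 4, the lowest of its group in the mitotic genes at 0.26, was the highest in 2. Without filtered-air mouse 4, 46 members were called with a median of 0.35, against 2.21% of all genes as higher. With RNA integrity as a covariate 50 were called with a median of 0.39, against 2.36% of all genes. The part of other cells, or of RNA quality, in the spread between mice was not tested.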

How the data were processed

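RNA of flow-sorted alveolar macrophages from 12 mice was sequenced from stranded mRNA libraries as paired-end reads, per the labels' protocols. The authors deposited 1 table of log2 values that had been variance-stabilized and batch-corrected, per the name of the deposited file. The submitters' processing notes name the mm10 build, cutadapt, STAR 2.7.7a, Salmon 1.5.2, DESeq2 1.26.0, R 3.6.0 and limma 3.42.2, with no role or order, and the annotation is not given in the sources used here. In the values the filtered-air mean is 0 in every gene, and so is the difference between the flow-sort batches. All 12 columns matched a sample title, and 0 were left over. Depth is unknown, so no counting error can be given.

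Genes were kept where at least 6 of 12 mice lay above the minimum that mice without reads share within a batch, 19633 of the 25444 that were not constant. A mouse that alone lacks reads in its batch is not recognized by this rule. Ozone was compared with filtered air with limma 3.58.1 in R 4.3.3, with batch as a covariate, and p-values were adjusted over all genes tested by the Benjamini-Hochberg method at 0.05. The pipeline was tested on simulated data. The mice are separate animals. Members and lists were chosen with earlier results of these data known. Per-mouse values are given for the member of smallest p in each of 9 steps and for Mki67, Top2a, Ccnb1, Cdk1, Plk1, Aurkb, Foxm1 and Cdc20. Promoters are from RefSeq, and no printed base lies in a GENCODE M21 exon. Alternatives were the filter, the variance prior, quantile normalization, covariates, single batches, single mice and a replicate block.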

Additional observations from a re-analysis of the deposited data

Results flagged for a closer look

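A mouse stood far from the other 5 of its group in 3 of 122 combinations of group and gene or median by Dixon's test at its 95% critical value, and chance gives about 1 in 20. Mybl2 in ozone mouse 1 was low, at 0.15 with the next mouse at 0.39 (gap 0.776 of the group's range). Kif15 in the same mouse was low, at 0.2 with the next at 0.47 (gap 0.631 of the range). Kif22 in filtered-air mouse 6 was high, at 0.46 with the next at 0 (gap 0.64 of the range). The per-mouse medians of the 60 genes gave no such gap.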

How the results depend on the processing

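The median difference over the members was 0.419. Under the alternatives it ran from 0.335 with quantile normalization to 0.422 without filtered-air mice 4 and 6, and from 0.348 to 0.481 without single mice. The 48 called members became 12 with quantile normalization, 15 in batch 1 and 0 in batch 2 (51 at an unadjusted p under 0.05). The 834 called genes became 171, 90 and 0 (1800 unadjusted), and 509 without filtered-air mice 4 and 6. The 35 other mitotic genes became 6, 2 and 0. The single batches use fewer mice, and the cause under quantile normalization was not tested. Without single mice these counts ran from 37 (without ozone mouse 5) to 52 (without filtered-air mouse 6) members, from 538 (without filtered-air mouse 1) to 751 genes, and from 23 to 45 other mitotic genes. The interaction count was 0 under every setting in which it was fitted. Of 1380 values for single members, 201 lost the call, 21 gained it and 7 changed sign. Sign changes were seen only for members not called, the difference of Espl1 (-0.0213 in batch 1) and the difference of Pttg1 (-0.00875 in batch 1, -0.0146 without filtered-air mice 4 and 6, and -0.0281 to 0.0243 without single mice). Unknown depth limits all comparisons of low genes.

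The labels number the mice of each group 1 to 6, but the mouse identifiers show that a shared number joins separate animals, so no pairing was used. Correlations of same-numbered deviations ran from -0.003 to 0.284, 4 of 6 above 0.1, and 6 of the 12 mice correlated best with their own number. With the replicate block 52 members, 853 genes and 36 other mitotic genes were called, with a median of 0.419.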
